A study of Mus musculus with 6 samples.

Results

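The enzymes that make and break down prostaglandins, their uptake carrier and a pair of nuclear receptors for fatty acid derivatives were followed in mouse blastocysts cultured with a synthetic microRNA. The set lists 8 genes, which are Hpgd, Ptgs1, Ptgs2, Ptges, Ptges3, Slco2a1, Ppard and Pparg, and each was matched by its current symbol or Entrez identifier to every probe of the array that carries it. Of these, 7 genes had a named probe, with 30 probes between them, out of 22485 genes and 33026 named probes on the array. Ptgs1 had none among the named probes and has no value here. An array probe with the older name COX1 belongs by its Entrez identifier to a mitochondrial gene and was not used for Ptgs1. All 7 measured genes had at least 1 probe above the dimmest 25% of the named probes, and 23 of the 30 probes lay above it. The genes were picked with the log2 differences between the treatment groups already known. Those differences are therefore given as a description, with no test of any member.

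The embryos were B6C3F1 hybrids, flushed from the oviducts of hormone-primed females on day 2 of pregnancy and cultured for 72 hours to day 5. In 3 samples the medium held a mimic of miR-30d at 400 nM, and in 3 samples it held a scrambled oligonucleotide with the dye Alexa 488 at the same dose. All embryos of both groups thus met a synthetic RNA, only the control is labelled as carrying the dye, and no array of untreated embryos was analysed here. Each condition used 30 embryos, so a sample is a pool of whole blastocysts, and in such bulk RNA fewer cells of a type and less RNA per cell cannot be told apart. The titles call the samples biological replicates without saying whether they came from separate matings, so standard errors describe the spread between these arrays.

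Prostaglandins are short-lived lipid signals made from arachidonic acid, which phospholipases release from membranes. The cyclooxygenases encoded by Ptgs1 and Ptgs2 turn it into a common precursor, and terminal synthases such as those of Ptges and Ptges3 turn the precursor into prostaglandin E. Signalling ends when the carrier encoded by Slco2a1 takes prostaglandins into the cell and the dehydrogenase encoded by Hpgd oxidises them. The receptors PPAR delta and PPAR gamma, encoded by Ppard and Pparg, bind fatty acids and prostaglandin derivatives and switch on genes of lipid use. In the mouse, prostaglandins and PPAR delta are known for their part in implantation, and PPAR gamma for its part in the placenta.

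The DNA just upstream of the start sites of Hpgd, Slco2a1 and Ptges is shown because these members had the largest log2 differences, in either direction, apart from the dim genes Ptgs2 and Pparg. Each run holds the 250 bases before a start listed in RefSeq's GRCm38.p6, 5′ to 3′ on the gene's strand. The windows of Slco2a1 and Ptges lie inside the annotated spans of their genes (chr9:103007061-103096002 and chr2:30889471-30931020). Those spans begin further upstream than the starts used here. Capitals mark a GC box (GGGCGG) or a TATA box (TATAAA) on either strand.
Hpgd, chr8:56294302-56294551, plus strand: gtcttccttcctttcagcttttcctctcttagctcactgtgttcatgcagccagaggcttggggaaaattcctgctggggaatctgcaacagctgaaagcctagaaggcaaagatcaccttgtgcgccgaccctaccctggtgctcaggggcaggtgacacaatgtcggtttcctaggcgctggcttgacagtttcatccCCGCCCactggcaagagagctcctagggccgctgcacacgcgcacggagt
Slco2a1, chr9:103008237-103008486, plus strand: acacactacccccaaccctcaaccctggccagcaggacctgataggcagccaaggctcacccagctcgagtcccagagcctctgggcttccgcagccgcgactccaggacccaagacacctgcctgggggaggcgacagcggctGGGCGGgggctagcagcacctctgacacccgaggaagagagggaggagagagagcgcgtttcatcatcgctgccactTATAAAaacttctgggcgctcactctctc
Ptges, chr2:30903298-30903547, minus strand: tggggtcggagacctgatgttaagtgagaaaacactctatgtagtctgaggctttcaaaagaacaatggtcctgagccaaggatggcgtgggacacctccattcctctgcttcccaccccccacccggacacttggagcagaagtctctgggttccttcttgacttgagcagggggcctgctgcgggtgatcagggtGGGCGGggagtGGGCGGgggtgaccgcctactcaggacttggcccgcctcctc

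The Hpgd window held 1 GC box, the Slco2a1 window 1 GC box and a TATA box at bases -29 to -24, and the Ptges window a pair of GC boxes at -53 to -48 and -42 to -37, counting the base before the start as -1. Over all 10 windows listed for the 8 genes, several of them from Pparg, 8 held a GC box. It was present in 32.7% of the 32851 windows of the whole table. The median share of G and C was 52.4% over all windows. The Ptgs1 window (48.0%) and 1 window of Pparg (40.8%) lay below it, and the others above it, up to 82.4%. The part of this base composition in the count was not tested. The half-site AGGTCA that PPARs bind was found in 2 of the 10, both of them windows of Pparg, against 14.0% of all windows. The direct repeat AGGTCANAGGTCA, made of that half-site, was found in 0 of the 10 and in 0.0335% of all windows. The cyclic AMP response element TGACGTCA was in 0 of the 10 (1.55% of all), the TATA box in 2 (12.4% of all) and the CCAAT box (CCAAT) in 3 (33.8% of all). All were searched on both strands, and such matches describe the letters and not the binding of a factor.

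The mimic stood for a microRNA of the miR-30 family, whose members recognise messengers through bases 2 to 8, the seed. The mature sequences of 3 other family members in RefSeq (GRCm38.p6) are shown to give the family's seed, in capitals, which was the same in all 3.
mmu-miR-30a-5p: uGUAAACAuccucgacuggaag
mmu-miR-30c-5p: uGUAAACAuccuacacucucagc
mmu-miR-30e-5p: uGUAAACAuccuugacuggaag

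Values are log2 signal, so a difference of 1 is a doubling. The 6 arrays had medians from 7.366 to 7.376, and 17399 genes were tested after the probes in the lowest 25% by mean were left out, with the probe of highest mean for each gene. The floor so set lay at 7.16, close to the median of 7.20 over the features without a gene name. limma, with Benjamini-Hochberg adjustment at 0.05, called 0 of the 17399 genes between mimic and scramble (0%), and 552 (3.17%) had an unadjusted p under 0.05. The median log2 difference over all genes tested was 0.0202, and the median of its absolute size was 0.177. The labelled tissue was checked against lineage markers of the blastocyst. A mean log2 signal of at least 10 was reached by 9 of 9 trophectoderm, 4 of 8 inner cell mass and 6 of 8 primitive endoderm genes. Every gene of these lists lay above the dim 25%, as did 17399 of all 22485 named genes.

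Hpgd, the gene for the dehydrogenase that inactivates prostaglandins, had the largest log2 difference of the members and was higher with the mimic on both of its probes. On the probe of higher mean, the scramble arrays of replicates 1 to 3 read 7.39, 8.32 and 7.59 and the mimic arrays 8.85, 10.07 and 9.26. The lowest mimic array thus lay above the highest scramble array, and the scramble arrays of replicates 1 and 3 lay near the dim end. The group means were 7.77 ± 0.49 and 9.39 ± 0.62 (SD, n = 3 each), and they differed by 1.63 on the log2 scale (SE 0.36), or 3.09-fold. Between arrays of the same replicate number the log2 difference was 1.46, 1.75 and 1.67, a narrower range than that of the arrays of either group.

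The other Hpgd probe read 8.31, 7.75 and 7.31 with scramble and 8.67, 9.33 and 8.45 with the mimic. The groups did not overlap here either, although the lowest mimic array and the highest scramble array were close. The means were 7.79 ± 0.50 and 8.82 ± 0.46 (SD, n = 3 each), and they differed by 1.02 on the log2 scale (SE 0.34), or 2.03-fold. Both probes had their highest reading on mimic replicate 2. They parted on replicate 1, where the difference between the paired arrays was 1.46 on one probe and 0.36 on the other. On the second probe scramble replicate 1 was the highest of its group rather than the lowest. The same-numbered differences of that probe were 0.36, 1.58 and 1.14, a wider range than that of the arrays of either group. When single arrays were left out, the log2 difference of the probe of higher mean went from 1.29 without mimic replicate 2 to 1.90 without scramble replicate 2.

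**Figure D1:**
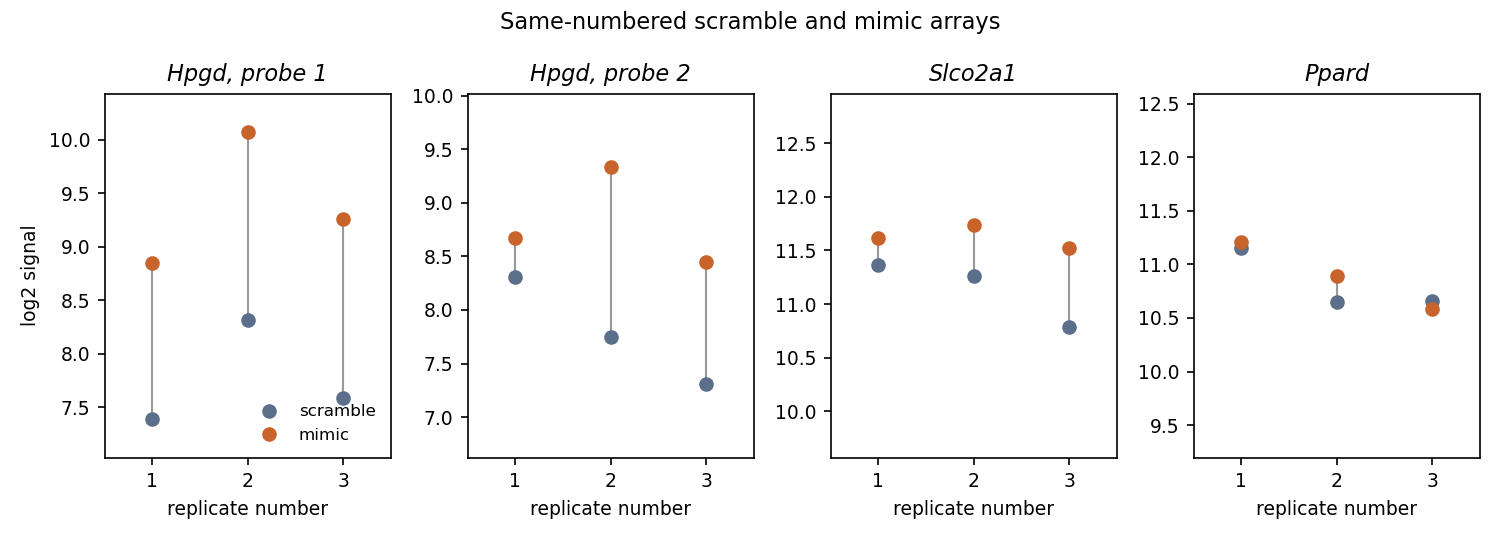
Log2 signal (vertical axes, each spanning the same number of log2 units) of both Hpgd probes, Slco2a1 and Ppard by replicate number, with a grey line joining the scramble and mimic arrays of one number. The mimic array lies above its same-numbered scramble array in all 3 pairs for both Hpgd probes and Slco2a1, while the points of Ppard lie close together within a number.

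Slco2a1, the gene for the prostaglandin uptake carrier, was also higher with the mimic, by less. Its single probe read 11.36, 11.26 and 10.79 with scramble and 11.62, 11.74 and 11.52 with the mimic. The groups did not overlap, the mimic arrays lay close to each other, and scramble replicate 3 was the lowest of all. The means were 11.14 ± 0.30 and 11.62 ± 0.11 (SD, n = 3 each), and they differed by 0.49 on the log2 scale (SE 0.18), or 1.40-fold. The differences between same-numbered arrays were 0.26, 0.48 and 0.73, and the difference of the means was 0.31 without scramble replicate 3.

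Of the cyclooxygenases only Ptgs2, the inducible form, was measured, and its signal could not be told from the dim end of the array. Its 10 probes had means from 6.97 to 7.29, 6 of them in the dimmest 25%, and single readings from 6.63 to 7.55. On the probe of highest mean the scramble arrays read 7.16, 6.89 and 7.36 and the mimic arrays 7.34, 7.41 and 7.55. The groups overlapped on this probe, with a log2 difference of 0.30 (SE 0.22). Over the 10 probes the difference went from -0.06 to 0.39, with 6 higher and 4 lower with the mimic, and the groups failed to overlap on 1 probe, one of the dim 25%. The mean of the probes above the floor gave 0.07, against 0.30 for the probe of highest mean.

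The terminal synthases differed from each other in their pattern. Ptges encodes the inducible microsomal synthase of prostaglandin E, which works alongside the cyclooxygenase of Ptgs2. Its probe of higher mean read 12.64, 12.17 and 12.13 with scramble and 12.19, 11.83 and 12.02 with the mimic. The highest mimic array passed the lowest scramble arrays, so the groups overlapped, while each mimic array lay below its own number. The log2 difference was -0.30 (SE 0.18), and the same-numbered differences were -0.45, -0.34 and -0.11. It shrank to -0.14 without scramble replicate 1, the highest array.

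The other Ptges probe read 8.91, 9.44 and 9.60 with scramble and 8.59, 8.73 and 8.98 with the mimic. These differ by -0.55 on the log2 scale (SE 0.24). The mimic arrays were again below their own numbers, and 1 of them passed the lowest scramble array. Both probes of Ptges thus pointed to the lower side, opposite to Hpgd and Slco2a1, without a separation of the groups.

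Ptges3 encodes a cytosolic prostaglandin E synthase that also serves as a co-chaperone of the heat shock protein HSP90. Its probe of highest mean read 12.66, 12.99 and 13.19 with scramble and 12.75, 13.01 and 13.42 with the mimic. On this probe the groups overlapped almost entirely, and the arrays sorted by replicate number rather than by treatment. The log2 difference was 0.11 (SE 0.21) there, and over the 4 probes it went from -0.15 to 0.11, with 1 higher and 3 lower. The probe at -0.15 read 12.11, 12.09 and 12.18 with scramble and 11.88, 11.89 and 12.16 with the mimic. Its arrays did not sort by number. On the probe of highest mean the log2 difference went from -0.07 without mimic replicate 3 to 0.26 without mimic replicate 1.

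**Figure D2:**
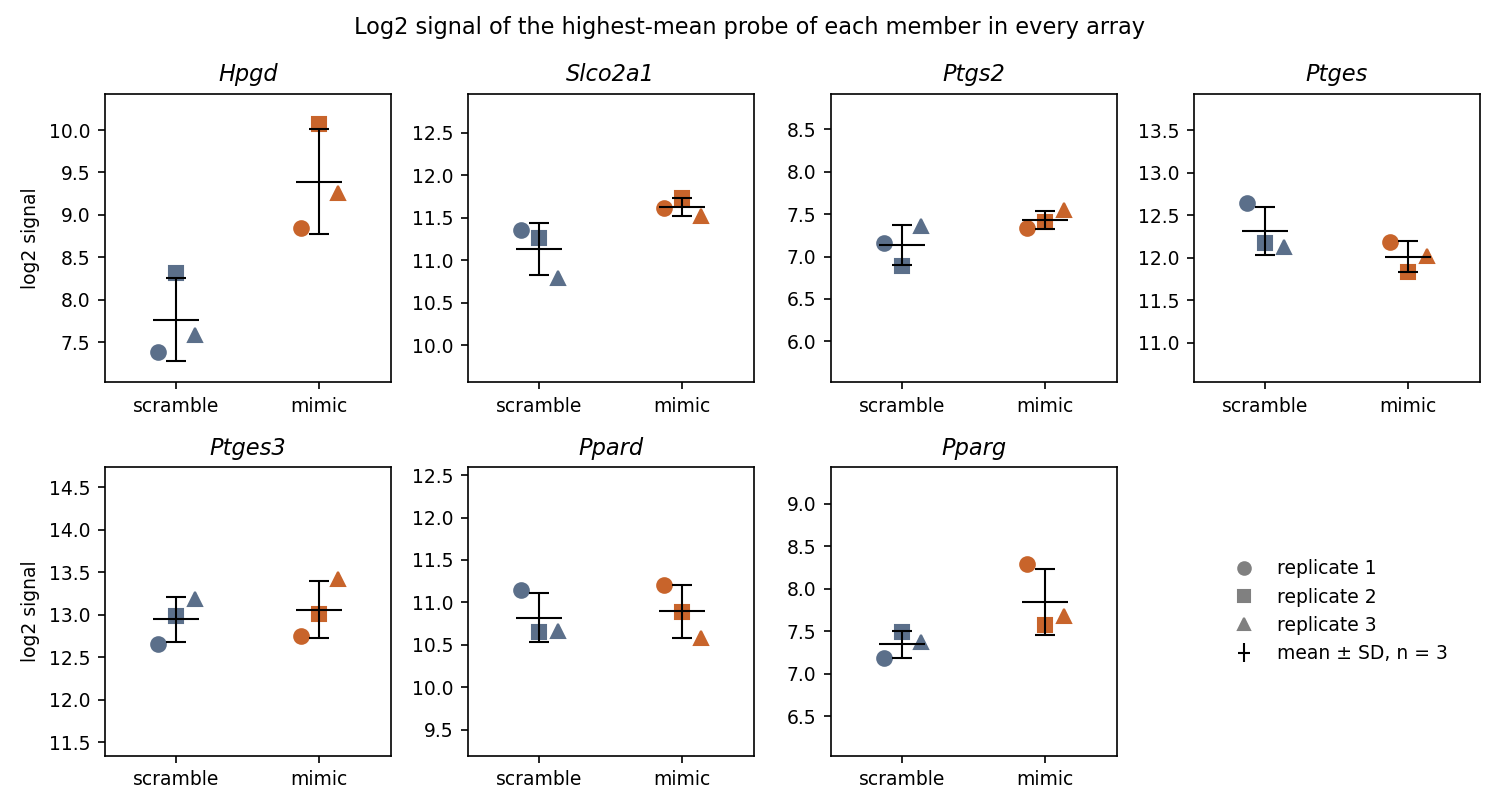
Log2 signal (vertical axes, each spanning the same number of log2 units) of the probe of highest mean of the 7 measured members in the 3 scramble and 3 mimic arrays, with group mean ± SD (n = 3). The groups stand apart for Hpgd and Slco2a1 and, near the dim end, for Pparg, and overlap for Ptgs2, Ptges, Ptges3 and Ppard.

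Ppard, the gene for PPAR delta, differed between the groups by less than the spread of the arrays within either. It read 11.15, 10.65 and 10.66 with scramble and 11.21, 10.89 and 10.58 with the mimic. Both replicate 1 arrays were the highest of their groups, and the groups overlapped over nearly their whole range. The log2 difference was 0.07 (SE 0.21), and it went from -0.09 without mimic replicate 1 to 0.23 without scramble replicate 1.

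Pparg, the gene for PPAR gamma, lay near the dim end on all of its 10 probes, with means from 7.09 to 7.60. Its probe of highest mean read 7.18, 7.49 and 7.37 with scramble and 8.29, 7.57 and 7.68 with the mimic. The groups did not overlap on this probe, but by a narrow margin apart from the bright reading of mimic replicate 1. The log2 difference of 0.50 (SE 0.29) was 0.28 without that array and 0.20 without both replicate 1 arrays. The next probe by mean read 7.27, 7.53 and 7.58 with scramble and 7.41, 7.67 and 7.26 with the mimic, for a difference of -0.01 (SE 0.25). Over the 10 probes the difference went from -0.13 to 0.50, with 6 higher and 4 lower, and 2 had groups that did not overlap. The other of these 2 read 6.95, 7.12 and 6.78 with scramble and 7.41, 7.45 and 7.35 with the mimic. Its difference was 0.46 (SE 0.18), and its mean of 7.18 lay next to the floor of 7.16. The mean of the probes above the floor gave 0.13.

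**Figure D3:**
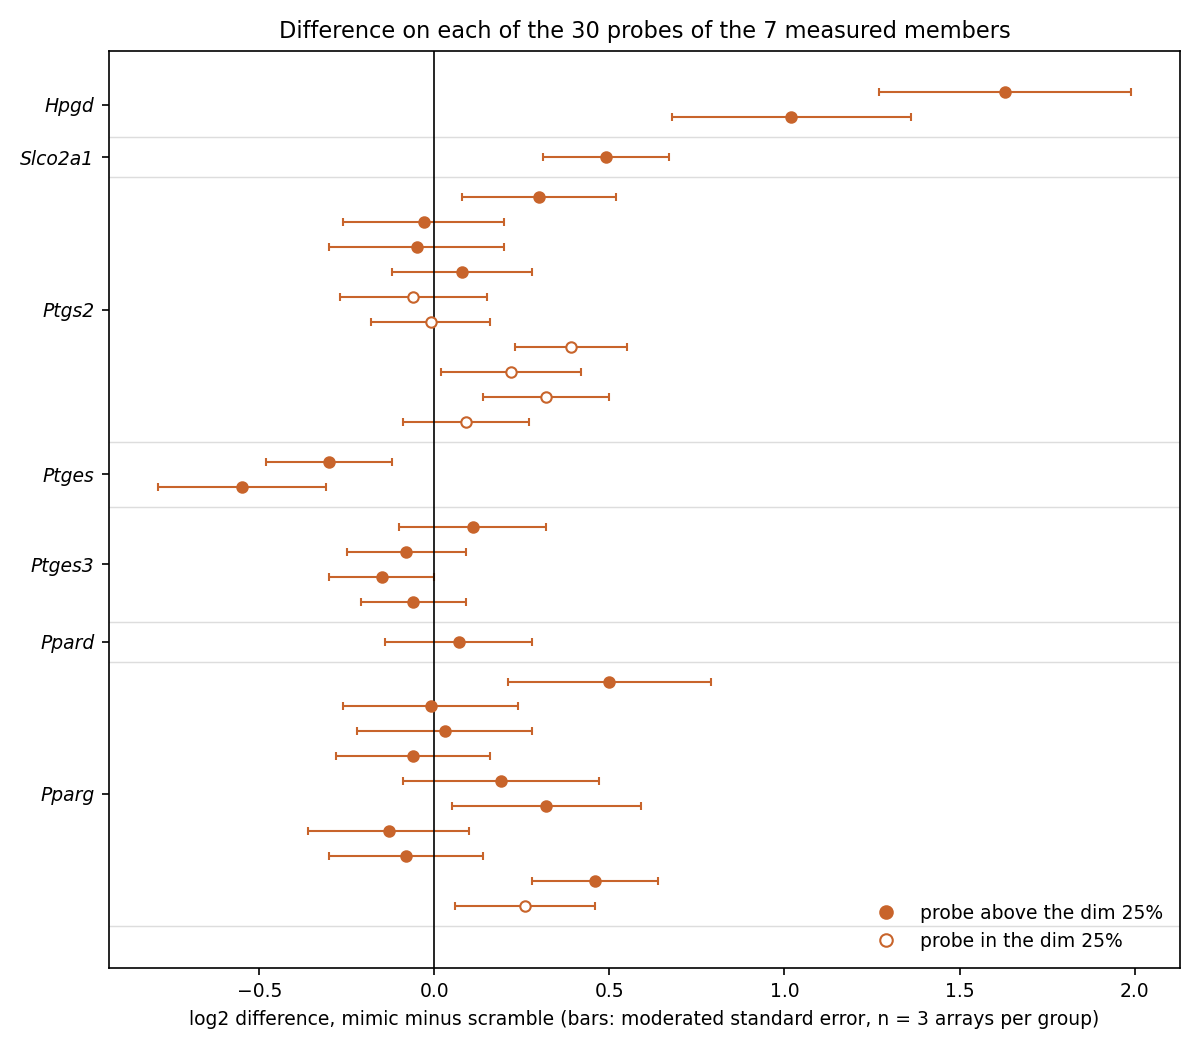
Log2 difference, mimic minus scramble (horizontal axis), of each of the 30 probes of the 7 measured members, with the moderated standard error from 3 arrays per group and open points for the 7 probes in the dimmest 25%. Both Hpgd probes lie right of all other points, both Ptges probes lie left of 0, and the 10 probes each of Ptgs2 and Pparg scatter around and above 0.

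On the probe of highest mean, the mimic arrays all lay above the scramble arrays for 3 of the 7 members, Hpgd, Slco2a1 and Pparg, and for 5.58% of all genes tested. They all lay below for 0 of the 7, against 4.12% of all genes. The members were chosen on this contrast, so nothing is read from these counts.

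The replicate number gave a measure of variation that played no part in the choice of the genes. An F test of the number in a limma model with the treatment group called 150 of the 17399 genes (0.862%) at an adjusted p of 0.05, and 0 of the 7 members. The smallest adjusted p of a member was 0.0873, for Ptges3, whose replicate 1 arrays averaged 12.71, replicate 2 arrays 13.00 and replicate 3 arrays 13.30. The range between the numbers was thus several times the log2 difference of 0.11 between the treatments. Ppard (adjusted p = 0.141 in the same limma test) averaged 11.18 on the replicate 1 arrays, 10.77 on replicate 2 and 10.62 on replicate 3. Hpgd (adjusted p = 0.146) averaged 8.12, 9.20 and 8.43, and Ptges (adjusted p = 0.189) 12.42, 12.00 and 12.07. At an unadjusted p under 0.05 the count was 4 of 7 members, beside 19.4% of all genes, and 2 of 7 with the mean of a gene's probes or without the variance trend. No member passed under the 6 other settings tried for this test, where the smallest adjusted p of a member went from 0.064 to 0.165.

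The genes of the pathway outside the set were read from 6 lists of 70 genes in all. Of these 50 were tested, 23 higher and 27 lower with the mimic, with a median log2 difference of -0.10 beside 0.0202 over all genes. The median went from -0.13 without mimic replicate 3 to 0.01 without mimic replicate 1, where 26 were higher and 24 lower. In the limma comparison 0 of the 50 passed the adjusted threshold and 1 had an unadjusted p under 0.05, beside 3.17% of all genes. With the replicate number as a block 1 of the 17399 genes passed (0.00575%), Ctsll3, which is neither a member nor a listed gene. In that model 0 of the 50 passed and 6 had an unadjusted p under 0.05, beside 7.24% of all genes.

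In the list of other genes of prostanoid synthesis, which holds phospholipases and further synthases, 10 of 14 were tested, 3 higher and 7 lower, with a median of -0.20. Pla2g10, a secreted phospholipase, read 11.22, 11.09 and 10.98 with scramble and 11.70, 11.66 and 11.32 with the mimic. The groups did not overlap, and the log2 difference was 0.46 (SE 0.14; limma adjusted p = 0.972). Pla2g4a, the cytosolic phospholipase that releases arachidonic acid, lay in the dim 25% with readings from 6.63 to 7.53. Ptges2, a further synthase of prostaglandin E, had a log2 difference of -0.16 (SE 0.16), the carbonyl reductase gene Cbr1 -0.27 (SE 0.28) and the prostacyclin synthase gene Ptgis 0.23 (SE 0.45). Of the 10 genes tested, 3 had groups that did not overlap, Pla2g10 and Pla2g12a (0.31, SE 0.18) higher and Ptges2 lower. Over all genes tested the share was 5.58% higher and 4.12% lower. Ptgis turned to -0.27 when scramble replicate 1 was left out, and to -0.48 when both arrays numbered 1 were. Cbr1 went from -0.53 without mimic replicate 1 to -0.02 without scramble replicate 1, and the median of the list from -0.21 to -0.08 over the single arrays left out.

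Beside Hpgd and Slco2a1, 7 of 8 other genes of prostanoid breakdown and transport were tested, 5 higher and 2 lower, with a median of 0.13. Without scramble replicate 1 the list had 2 higher and 5 lower and a median of -0.06, and without mimic replicate 3 it had 3 higher and 4 lower and a median of -0.01. Ptgr1, which encodes the reductase that acts after the Hpgd enzyme, had a log2 difference of 0.27 (SE 0.20) that was 0.06 without mimic replicate 3. Abcc4, the gene for a pump that exports prostaglandins, had -0.12 (SE 0.13), which went from -0.16 to -0.06 over the single arrays left out.

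The prostanoid receptors gave little signal. Only 4 of 9 were tested, with 1 higher and 3 lower and a median of -0.45. These counts rest on scramble replicate 1, without which the median was 0.11, with 2 genes above 0 and 2 below. Ptger3, a receptor for prostaglandin E singled out after its values were seen, read 12.77 on that array and between 7.25 and 8.10 on the other 5 arrays. Its log2 difference was -1.39 (SE 1.26) with the array and 0.40 without it, and its other probe had 0.32. Ptger2, Ptger4, Ptgfr and Ptgir were all in the dim 25%, with readings from 6.74 to 7.53. Ptger1 had the smallest p of the list, with a log2 difference of -0.62 (SE 0.37) that was -0.19 without scramble replicate 1.

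Among the partners of Ppard and Pparg, 9 of 12 were tested, 6 higher and 3 lower, with a median of 0.06. Ppara, the third PPAR, had a log2 difference of 0.15 (SE 0.32), which was -0.24 without both replicate 1 arrays. Rxra, the gene for the retinoid X receptor with which PPARs pair, had 0.05 (SE 0.31), which went from -0.16 without scramble replicate 1 to 0.23 without mimic replicate 1. The coactivator gene Ncoa1 had 0.46 (SE 0.25), the smallest p of this list, and 0.29 without scramble replicate 3. Of 20 genes known to be switched on by PPARs, 15 were tested, 5 higher and 10 lower, with a median of -0.10. Without mimic replicate 1 that median was 0.01, with 8 genes above 0 and 7 below. The lipid droplet gene Plin2 had a log2 difference of -0.13 (SE 0.15), the fatty acid carriers Fabp3 and Fabp5 -0.11 (SE 0.31) and -0.37 (SE 0.21), the mitochondrial fatty acid importer Cpt1a -0.24 (SE 0.26) and the secreted lipase inhibitor Angptl4 0.49 (SE 0.35). With single arrays left out Plin2 went from -0.22 to -0.02, Fabp3 from -0.36 to 0.08, Fabp5 from -0.55 to -0.21 and Cpt1a from -0.42 to -0.05. The highest value came without mimic replicate 1 for Plin2, mimic replicate 2 for Fabp3 and scramble replicate 1 for Cpt1a, and without mimic replicate 2 or scramble replicate 1 for Fabp5. Angptl4 had 0.14 without scramble replicate 1, and the 11 probes of Cpt1a went from -0.40 to 0.22. Pdk4 was in the dim 25%, with readings from 6.74 to 7.36. Akr1b3, a gene of the prostanoid synthesis list, was not matched to a named probe and has no value here.

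**Figure D4:**
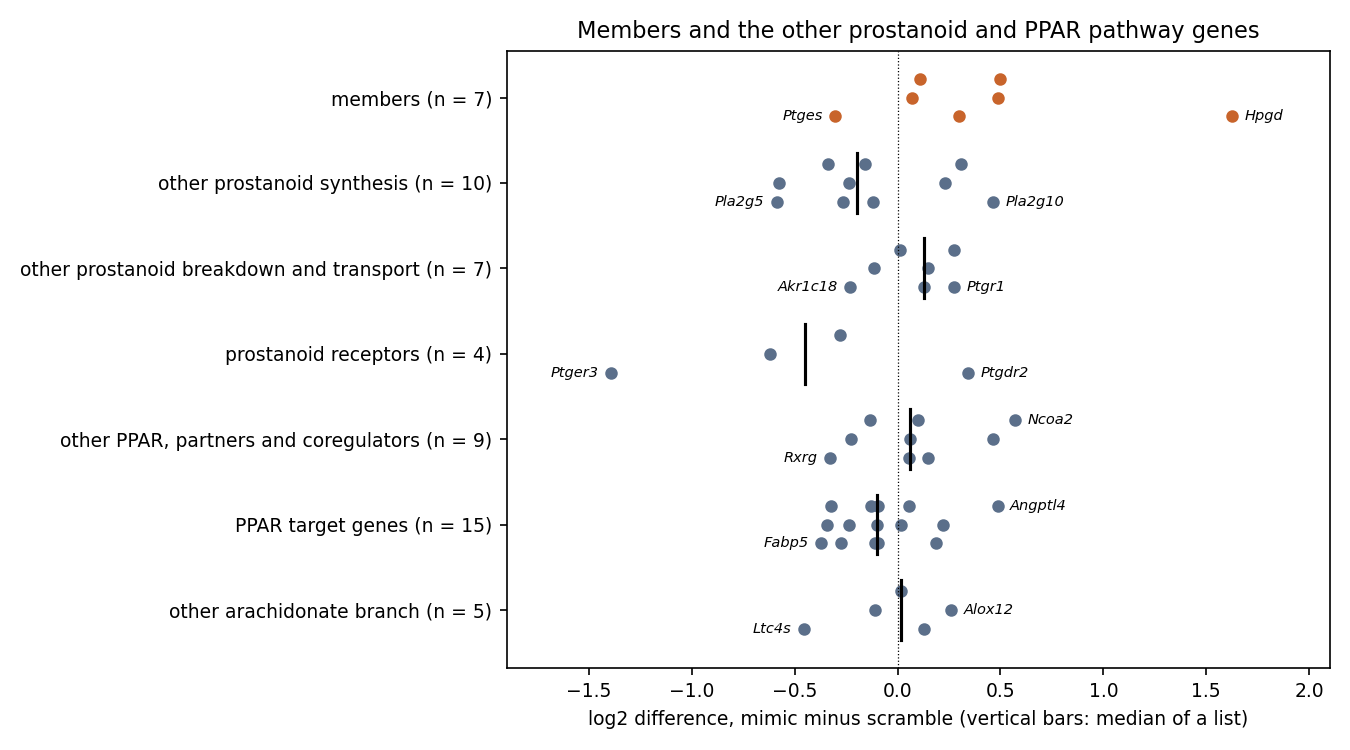
Log2 difference, mimic minus scramble (horizontal axis), of the 7 measured members and of the tested genes of 6 pathway lists, on each gene's probe of highest mean, with the lowest and highest gene of each row named and a vertical bar at the median of each list. Hpgd lies right of all other points, and the lists spread to both sides of 0.

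Hpgd, as the member with the largest difference, was also set against the profiles of all other tested genes, by the root mean square distance between log2 values centred on each gene's mean over the 6 arrays. The nearest gene was Ctsll3, a cathepsin L-like gene, at a distance of 0.22, followed by the integrin gene Itga7 at 0.23 and the homeobox gene Irx1 at 0.35, against a median of 0.94 over all genes. That median is close to the distance of 0.93 that a flat profile has from Hpgd. The distance includes the difference between the groups, so genes near Hpgd also differ between them by construction. Ctsll3 read 12.00, 12.75 and 12.44 with scramble and 13.81, 14.99 and 14.31 with the mimic. Like the Hpgd probe of higher mean, though not the other one, it was lowest on replicate 1 and highest on replicate 2 in both groups.

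Markers of the blastocyst lineages were read beside the members. The primitive endoderm markers had 6 of 8 genes higher with the mimic, with a median log2 difference of 0.37, and their summed linear signal went from 14800 to 24500 in the scramble arrays and from 19400 to 30500 in the mimic arrays. The trophectoderm markers had 2 of 9 higher and 7 lower, with a median of -0.09 and sums from 112000 to 134000 and from 96100 to 128000. The inner cell mass markers had 6 of 8 higher, with a median of 0.105 and sums from 8700 to 9820 and from 8780 to 10100. Such linear sums weigh the brightest genes most. These were Lamb1 (mean log2 signal 13.39) for primitive endoderm, Krt18 (15.76) and Krt8 (14.91) for trophectoderm and Zfp42 (11.56) for inner cell mass. The lower genes of the primitive endoderm list were Gata6 (-0.16) and Dab2 (-0.47). Scramble replicate 1 was the lowest scramble array for Sox7 (7.04, 8.35 and 8.40) and Lamb1 (12.58, 13.79 and 12.99), though not for Gata6 or Dab2. The marker lists were not read with arrays left out. The part of these lineages in the Hpgd and Slco2a1 differences was not tested. Of the cumulus cell markers, which include no member, 5 of 8 lay in the dim 25% and the sums were 7150 to 13700 with scramble and 6830 to 11900 with the mimic, with Foxl2 and Nr5a2 at a mean of 12.69 and 10.63. In the oviduct list 3 of 7 markers and in the blood and endothelium list 3 of 6 lay in the dim 25%, Tubb4b (13.80) and Kdr (10.46) being the bright ones. Their sums were 13200 to 16400 and 1580 to 3520 with scramble, and 13000 to 18500 and 1360 to 3100 with the mimic.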

How the data were processed

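The authors deposited a table of log2 signal, with 45220 features on each of 6 arrays of 1 colour (Cy3, from 50 ng of total RNA per the labels). The sources used here do not give how the arrays were scanned, corrected for background and normalized. The scale was read from the values, whose array medians nearly coincide, so a change shared by most genes cannot be seen. Features were named by the platform annotation (33026 with 1 symbol, 0 with several, 12194 with none), and symbols were updated by Entrez identifier through RefSeq's GRCm38.p6 gene table (98.2% matched). limma 3.58.1 in R 4.3.3 (lmFit, eBayes with a trend, two-sided) was run over 17399 genes and was tested on simulated data. Standard errors of member probes come from the same model over all 33026 named probes, without a filter. The number of arrays limits the precision.

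The members, lists and tests were chosen with earlier results of these data known. The genes named were the members, a fixed set of pathway genes, the gene of smallest p in each list and the 3 profiles nearest to the member of largest difference. Ptger3 was singled out after its values were seen.

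Arrays that share a number deviated together from their groups, with correlations of 0.328, 0.349 and 0.204, each over the 0.1 required here. The numbers were therefore taken as pairs in the replicate block, an alternative to the main model. Of the pairs with unlike numbers, scramble 2 with mimic 3 (0.185) and scramble 3 with mimic 2 (0.124) also passed 0.1. This pairing comes from the values, as no label ties a number to a shared day. The main calls between mimic and scramble and the standard errors printed beside the differences come from the model without this pairing. Over the tested genes, each on its probe of highest mean, the replicate block changed the standard error of Hpgd from 0.39 to 0.20. That of Slco2a1 went from 0.17 to 0.11. It changed Ptges from 0.17 to 0.10, Ptges3 from 0.21 to 0.08 and Ppard from 0.20 to 0.10. Ptgs2 went from 0.20 to 0.19, and Pparg stayed at 0.28. Alternatives were no filter, a 50% filter, the mean of a gene's probes, quantile normalization, median centring, no trend, the replicate block and arrays left out. Figures were drawn with matplotlib 3.10.9.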

Additional observations from a re-analysis of the deposited data

How the results depend on the processing

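The count of 0 genes called between mimic and scramble held under every filter, scaling, probe and variance setting, and went from 0 to 0 when single arrays were left out, where 362 to 919 genes had an unadjusted p under 0.05. It was 0 without both replicate 1 arrays. With the replicate block 1 gene, Ctsll3, passed. The count of other pathway genes called was 0 in every setting, the replicate block and the range from 0 to 0 without single arrays included, with 1 to 4 of 50 at an unadjusted p under 0.05 in the latter. The replicate block changed no other call of the mimic comparison. The count of genes called by replicate number moved from 150 to 275 with no filter, 296 with the 50% filter, 33 with the mean of a gene's probes and 0 without the variance trend (2943 of 17399 at an unadjusted p under 0.05); the cause was not tested. Of 97 member values under alternatives 3 moved by more than 1 SD, those of Ptgs2 and Pparg already given. Hpgd stayed between 1.29 and 1.90 in 14 settings. The filters, the trend and the replicate block keep the same probe and group means, so the log2 difference could not move under them. The Hpgd range is for the probe of higher mean, apart from 1.33 for the mean of its probes. The other Hpgd probe had 1.02. Nearness to the background limits Ptgs2, Pparg and the scramble readings of Hpgd, and no detection flags were used here.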

Other observations

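The branch of arachidonic acid use that leads to leukotrienes and related lipids was read in a list of its own. Of 7 genes 5 were tested, 3 higher and 2 lower with the mimic, with a median log2 difference of 0.01. Ltc4s, the leukotriene C synthase gene, read 10.10, 9.28 and 9.69 with scramble and 9.43, 9.13 and 9.14 with the mimic, and its log2 difference of -0.45 (SE 0.24) was -0.25 without scramble replicate 1. Alox5, which starts leukotriene synthesis, lay in the dimmest 25%, with readings from 6.62 to 7.06.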
